A study of Mus musculus with 40 samples.

Results

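Programmed cell death in the prepubertal mouse uterus was followed through 10 genes: Bbc3, Pmaip1, Bax, Apaf1, Fas, Tnfrsf10b, Bcl2, Bcl2l1, Mcl1 and Perp. They were taken by gene name from a table of 54532 genes, and all 10 had a row and passed the filter on low values that 16226 genes passed. The study gave prepubertal mice (postnatal day 25) doxorubicin, a chemotherapy drug that breaks DNA, at 3 mg/kg in 2 weekly doses, with or without anti-Müllerian hormone (AMH). Bulk RNA of the uterus was sequenced in 40 libraries, 5 in each of 8 groups: doxorubicin + AMH (3 mg/kg and 0.75 mg/kg), doxorubicin, AMH (0.75 mg/kg) and vehicle (PBS or saline), each harvested at 24 h or 4 h after treatment. The labels name no strain, genotype or mutant allele, and number the libraries of a group as biological replicates without tying them to single mice, so p-values measure the spread between these libraries. Levels are FPKM, fragments corrected for the length of the gene and for sequencing depth, which can be compared between genes.

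Apoptosis is controlled by the balance of BCL2 family proteins at the outer mitochondrial membrane. BH3-only proteins such as PUMA (Bbc3) and NOXA (Pmaip1) bind the protective members BCL2, BCL-XL (Bcl2l1) and MCL1, which frees the effector BAX to open the membrane, and released cytochrome c then assembles with APAF1 into the caspase-9 activating apoptosome. A separate arm starts at the cell surface, where the death receptors FAS and DR5 (Tnfrsf10b) recruit caspase-8. The tumour suppressor p53, which DNA breaks activate, is known to induce Bbc3, Pmaip1, Bax, Apaf1, Fas, Tnfrsf10b and Perp, a membrane protein of desmosomes.

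Promoter windows were taken from RefSeq (build GRCm38.p6, 250 bases before to 50 after a transcript start), leaving out the chromosome of Pmaip1. That gene therefore could not match, and Tnfrsf10b and Perp had no window in the set. The other 7 of the 10 genes matched, with 11 windows. The 4 below belong to the pair with the largest doxorubicin changes at 24 h, Bbc3 and Fas, and to the effector and guardian that moved opposite ways with AMH at 4 h, Bax and Bcl2. Capitals mark matches to 3 motifs searched on both strands: the p53 half-site, the GC-rich SMAD element GGCGCC and the E-box CACGTG.
Bbc3 (chr7:16309333-16309632, + strand): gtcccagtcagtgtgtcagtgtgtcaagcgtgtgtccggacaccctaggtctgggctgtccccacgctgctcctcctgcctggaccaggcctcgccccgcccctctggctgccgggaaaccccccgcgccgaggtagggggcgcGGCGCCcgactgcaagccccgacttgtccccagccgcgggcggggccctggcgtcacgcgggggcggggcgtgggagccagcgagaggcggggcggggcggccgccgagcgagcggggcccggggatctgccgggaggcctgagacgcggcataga
Bax (chr7:45466849-45467148, − strand): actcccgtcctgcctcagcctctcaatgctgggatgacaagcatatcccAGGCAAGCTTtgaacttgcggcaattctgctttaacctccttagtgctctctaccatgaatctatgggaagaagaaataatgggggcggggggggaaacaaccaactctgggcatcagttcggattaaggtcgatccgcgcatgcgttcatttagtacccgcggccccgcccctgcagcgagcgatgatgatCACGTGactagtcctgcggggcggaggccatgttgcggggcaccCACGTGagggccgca
Fas (chr19:34290409-34290708, + strand): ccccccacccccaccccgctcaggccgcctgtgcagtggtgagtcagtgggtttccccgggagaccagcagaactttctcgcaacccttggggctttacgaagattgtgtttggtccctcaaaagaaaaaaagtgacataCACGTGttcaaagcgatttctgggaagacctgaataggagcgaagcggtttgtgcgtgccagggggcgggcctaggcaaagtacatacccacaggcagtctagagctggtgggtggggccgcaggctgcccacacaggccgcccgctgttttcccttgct
Bcl2 (chr1:106714241-106714540, − strand): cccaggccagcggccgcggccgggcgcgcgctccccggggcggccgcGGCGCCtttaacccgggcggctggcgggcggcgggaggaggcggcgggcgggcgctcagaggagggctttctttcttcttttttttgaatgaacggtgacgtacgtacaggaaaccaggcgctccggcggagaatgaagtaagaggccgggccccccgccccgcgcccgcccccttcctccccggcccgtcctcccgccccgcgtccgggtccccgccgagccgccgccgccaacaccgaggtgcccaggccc
Counted from the transcript start, the Bax window held a p53 half-site match at -201 and E-boxes at -9 and 36. Of all 32851 windows searched, 8.356% hold a half-site match. The Fas window held an E-box at -110 (7.15% of all windows hold one). GGCGCC stood at -106 in the Bbc3 window and at -203 in the Bcl2 window, and 11.866% of all windows hold it. Bbc3 has other annotated starts, whose windows held GGCGCC at -212 and an E-box at -64. The windows of Apaf1, Mcl1 and Bcl2l1 held none of the 3 motifs. These matches describe letters in a window and are not binding sites shown to be used.

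Rebuilt read totals ran from 16251563 to 27391049 per library. Uterine markers (Hoxa10, Hoxa11, Esr1, Pgr, Msx1, Emx2, Acta2 and Des) were high throughout, with a mean log2(FPKM + 1) of 6.35 to 6.96 per library. Some libraries stood apart by markers of other tissue or state: 16 by squamous epithelium genes, 9 by oviduct and ciliated cell genes, 6 by adipocyte genes and 6 by oestrogen-responsive uterine genes, each more than 1 log2 unit above the median of all libraries. The high-oviduct libraries at 24 h were doxorubicin libraries 3, 4 and 5 and doxorubicin + AMH library 4, with none from vehicle or AMH. At 4 h they were doxorubicin libraries 3 and 4, doxorubicin + AMH library 5 and vehicle libraries 4 and 5. The oestrogen-responsive list split the vehicle libraries at 24 h, with scores of 5.75, 6.73 and 5.58 in libraries 1, 2 and 4 against 3.40 and 3.77 in libraries 3 and 5. The smooth muscle score (Myh11, Cnn1, Actg2, Tagln, Acta2 and Des, the last 2 also in the uterine list) moved with treatment. At 24 h it was 7.14 to 7.39 with doxorubicin + AMH, 6.75 to 7.56 with doxorubicin, 7.30 to 8.10 with AMH and 7.89 to 8.54 with vehicle, so both doxorubicin groups lay wholly below vehicle. At 4 h it was 6.99 to 7.69 with doxorubicin + AMH, 7.06 to 7.59 with doxorubicin, 7.38 to 7.55 with AMH and 7.62 to 8.04 with vehicle, so doxorubicin and AMH lay wholly below vehicle. In bulk tissue, fewer cells of a type and less RNA per cell cannot be told apart. The part of these differences in the results was not tested beyond leaving out the libraries high in oviduct, adipocyte or oestrogen-responsive genes.

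**Figure D1:**
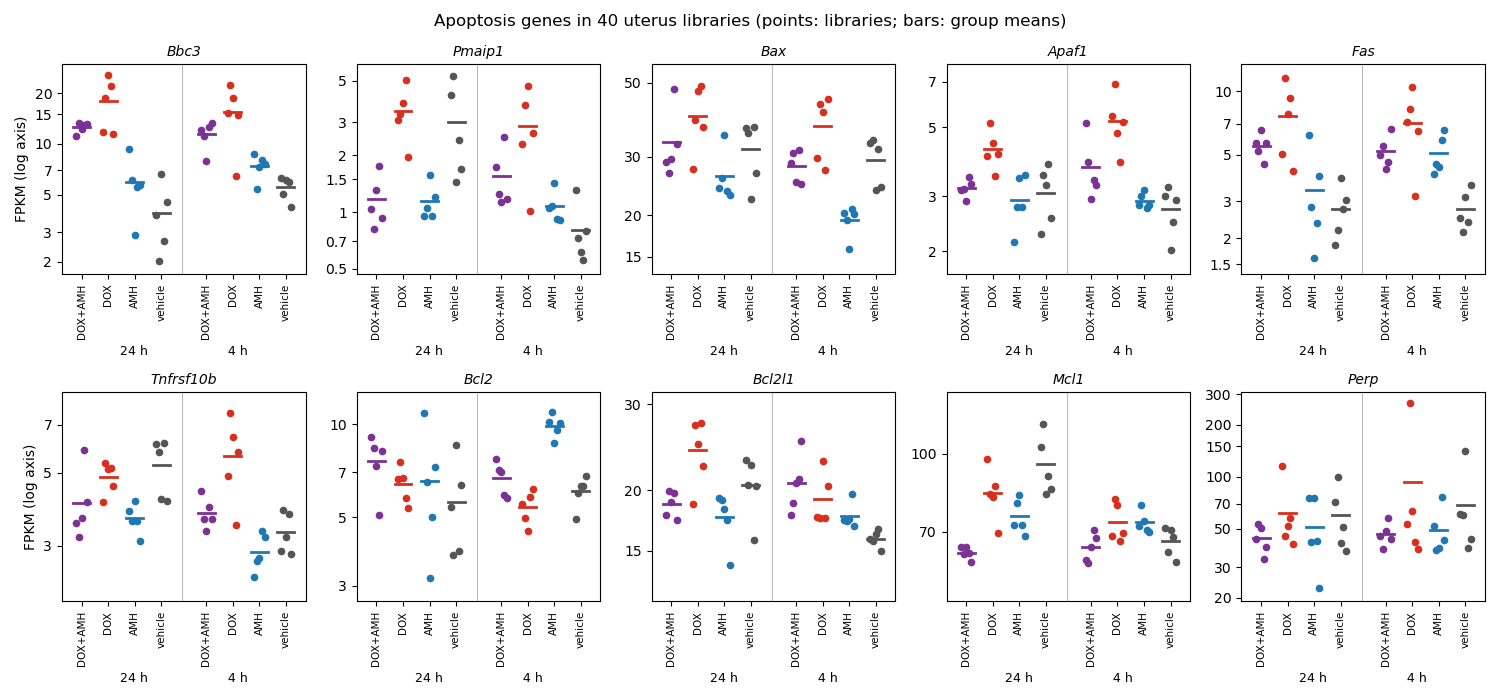
FPKM (log axis) of the 10 genes in each library, with doxorubicin + AMH, doxorubicin, AMH and vehicle from left to right at 24 h and then at 4 h; bars are group means of 5 libraries. At 24 h all 5 doxorubicin libraries lie above all 5 vehicle libraries for Bbc3 and Fas, and all 5 doxorubicin + AMH libraries lie below all 5 doxorubicin libraries for Pmaip1, Apaf1 and Mcl1. The share of all genes with such gaps was not counted.

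Bbc3 encodes PUMA, the BH3-only protein that binds every protective BCL2 relative. At 24 h its levels were 11.1, 13.3, 12.2, 12.9 and 13.1 FPKM in doxorubicin + AMH uteri, 11.8, 18.8, 25.5, 22.1 and 11.4 FPKM in doxorubicin uteri, 9.35, 6.11, 2.89, 5.59 and 5.72 FPKM in AMH uteri and 3.78, 2.02, 6.60, 2.66 and 4.54 FPKM in vehicle uteri. Every library that received doxorubicin, with or without AMH, lay above every vehicle library and above every AMH library. Against vehicle at 24 h, Bbc3 rose by 1.95 ± 0.25 (log2 change ± SE, on the log2(FPKM + 1) scale; limma with Benjamini-Hochberg adjustment, adjusted p = 1.2e-05) with doxorubicin, and by 1.53 ± 0.25 (adjusted p = 0.00011) with doxorubicin + AMH. The doxorubicin rise passed the threshold under every alternative tried, with adjusted p between 1.3e-06 and 0.039. The rise with doxorubicin + AMH was 1.06 (adjusted p = 0.076) without the libraries high in oestrogen-responsive genes.

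Doxorubicin + AMH stood 0.42 ± 0.25 below doxorubicin alone for Bbc3 at 24 h, a difference that did not pass (adjusted p = 0.49). The doxorubicin + AMH libraries spanned 11.1 to 13.3 FPKM, within the 11.4 to 25.5 FPKM of doxorubicin apart from the lowest library. At 4 h the levels were 12.0, 11.2, 7.95, 12.6 and 13.4 FPKM in doxorubicin + AMH uteri, 15.1, 22.5, 18.6, 6.45 and 14.7 FPKM in doxorubicin uteri, 8.76, 5.43, 7.28, 8.07 and 7.59 FPKM in AMH uteri and 6.28, 5.03, 6.13, 5.93 and 4.24 FPKM in vehicle uteri. All 5 doxorubicin libraries exceeded all vehicle libraries, although library 4, at 6.45 FPKM, did so by little. The 4 h rise over vehicle was 1.25 ± 0.25 (adjusted p = 0.0098) with doxorubicin, and the difference with doxorubicin + AMH, 0.92 ± 0.25, did not pass (adjusted p = 0.084).

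Pmaip1 encodes NOXA, the BH3-only protein whose main partner is MCL1, and was the gene of lowest level among the 10, with a median of 1.31 FPKM over the 40 libraries. At 24 h it stood at 1.04, 0.817, 1.32, 1.76 and 0.931 FPKM in doxorubicin + AMH uteri, 3.10, 3.32, 3.82, 5.00 and 1.97 FPKM in doxorubicin uteri, 0.952, 1.05, 1.58, 0.952 and 1.20 FPKM in AMH uteri and 4.18, 5.25, 1.44, 2.43 and 1.69 FPKM in vehicle uteri. The doxorubicin + AMH and doxorubicin libraries did not overlap, whereas doxorubicin and vehicle overlapped widely. Pmaip1 fell by 1.01 ± 0.22 with doxorubicin + AMH relative to doxorubicin (adjusted p = 0.036) and by 0.80 ± 0.22 relative to vehicle (adjusted p = 0.0082). Doxorubicin alone differed from vehicle by 0.21 ± 0.22 (adjusted p = 0.5). AMH alone stood 0.81 ± 0.22 below vehicle, which did not pass (adjusted p = 0.079).

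The 3 vehicle libraries with high oestrogen-responsive scores at 24 h were also the 3 highest in Pmaip1, at 4.18, 5.25 and 2.43 FPKM, against 1.44 and 1.69 FPKM in the other two. Without the high-scoring libraries, the doxorubicin + AMH change against vehicle was -0.25 (adjusted p = 0.75) and that against doxorubicin was -0.88 (adjusted p = 0.11). At 4 h Pmaip1 had 1.73, 1.25, 1.13, 2.49 and 1.17 FPKM in doxorubicin + AMH uteri, 2.31, 3.72, 4.70, 1.02 and 2.64 FPKM in doxorubicin uteri, 1.06, 1.07, 1.42, 0.918 and 0.914 FPKM in AMH uteri and 1.31, 0.726, 0.617, 0.560 and 0.798 FPKM in vehicle uteri. Among the doxorubicin libraries, 4 of 5 lay above every vehicle library, and library 4 lay inside the vehicle range. The rise with doxorubicin at 4 h was 1.04 ± 0.22 (adjusted p = 0.022).

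**Figure D2:**
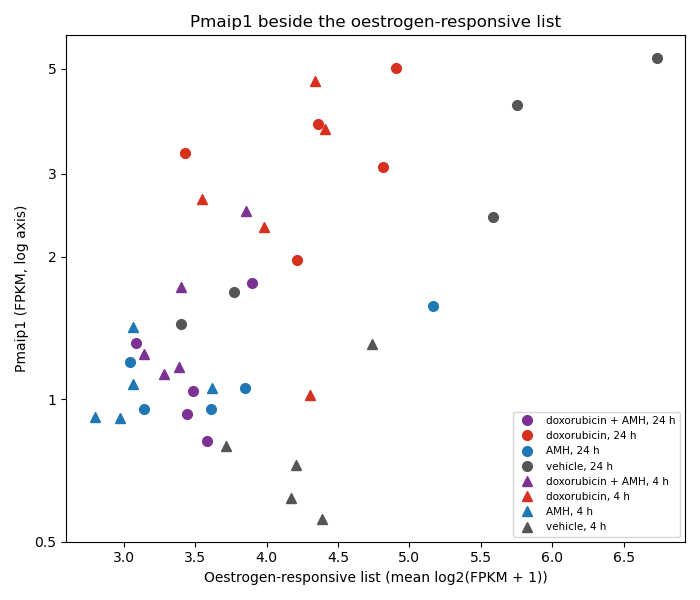
Pmaip1 (FPKM, log axis) against the mean log2(FPKM + 1) of 12 oestrogen-responsive uterine genes, 1 point per library, circles for 24 h and triangles for 4 h. Vehicle libraries 1, 2 and 4 at 24 h lie at scores of 5.58 to 6.73 with 2.43 to 5.25 FPKM. The 10 doxorubicin libraries have 1.02 to 5.00 FPKM at scores of 3.43 to 4.91. The 5 vehicle libraries at 4 h have 0.560 to 1.31 FPKM at scores of 3.72 to 4.74.

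Bax encodes the pore-forming effector and was abundant, between 15.8 and 49.0 FPKM. At 4 h it had 28.7, 30.8, 25.1, 31.3 and 24.8 FPKM in doxorubicin + AMH uteri, 29.7, 43.2, 40.7, 27.4 and 44.7 FPKM in doxorubicin uteri, 20.3, 19.4, 15.8, 20.9 and 20.2 FPKM in AMH uteri and 32.8, 33.7, 23.8, 31.5 and 24.2 FPKM in vehicle uteri. The AMH libraries lay below all libraries of the other 3 groups at 4 h. Bax fell by 0.56 ± 0.16 with AMH relative to vehicle (adjusted p = 0.017), and doxorubicin differed from vehicle by 0.32 ± 0.16 (adjusted p = 0.43). At 24 h Bax ranged over 26.8 to 47.9 FPKM with doxorubicin + AMH, 27.4 to 49.0 FPKM with doxorubicin, 23.0 to 34.8 FPKM with AMH and 22.4 to 36.7 FPKM with vehicle. These ranges overlapped, and the doxorubicin difference of 0.32 ± 0.16 (adjusted p = 0.15) passed only when reads were scaled to genes, 0.45 (adjusted p = 0.042), or tested by voom, 0.47 (adjusted p = 0.038). Bax overlaps in part, on the same strand, with the annotated gene Gm45808, listed at 0 in every library.

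Apaf1, the scaffold of the apoptosome, was expressed between 2.01 and 6.87 FPKM. At 4 h its levels were 5.15, 3.88, 2.95, 3.38 and 3.26 FPKM in doxorubicin + AMH uteri, 5.44, 6.87, 4.79, 3.88 and 5.22 FPKM in doxorubicin uteri, 2.82, 3.00, 3.14, 2.75 and 2.82 FPKM in AMH uteri and 3.02, 3.22, 2.01, 2.49 and 2.93 FPKM in vehicle uteri. Doxorubicin and vehicle did not overlap, and Apaf1 rose by 0.73 ± 0.12 (adjusted p = 0.0011). At 24 h it had 3.16, 3.16, 2.91, 3.45 and 3.29 FPKM in doxorubicin + AMH uteri, 4.05, 5.16, 4.46, 3.50 and 4.11 FPKM in doxorubicin uteri and 2.27, 3.51, 3.26, 3.82 and 2.56 FPKM in vehicle uteri. The rise with doxorubicin was 0.37 ± 0.12 (adjusted p = 0.035), and it was lost in many alternatives: without the high-oestrogen (0.51, adjusted p = 0.27), high-oviduct (0.47, adjusted p = 0.065) or high-adipocyte libraries (0.31, adjusted p = 0.1), with no filter (adjusted p = 0.067), with only the compared groups in the fit (adjusted p = 0.16) and when 5 of the 10 libraries were left out singly, doxorubicin library 2 or 3 or vehicle library 1, 2 or 5. All 5 doxorubicin + AMH libraries lay below all 5 doxorubicin libraries at 24 h, yet the difference of -0.32 ± 0.12 did not pass (adjusted p = 0.28). The small RNA gene Gm25390 lies within Apaf1 on the other strand, and whether counting used strand is not given in the sources used here.

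Fas, the receptor for Fas ligand, had 5.65, 5.18, 6.51, 4.51 and 5.64 FPKM at 24 h in doxorubicin + AMH uteri, 5.04, 11.6, 7.83, 9.32 and 4.20 FPKM in doxorubicin uteri, 6.21, 2.80, 1.61, 2.37 and 3.94 FPKM in AMH uteri and 1.86, 2.19, 3.85, 2.74 and 3.04 FPKM in vehicle uteri. Both doxorubicin groups lay wholly above vehicle. A small RNA gene listed at 0 in every library, Gm27818, lies within Fas. Fas rose by 0.82 ± 0.23 with doxorubicin + AMH (adjusted p = 0.0091) and by 1.15 ± 0.23 with doxorubicin (adjusted p = 0.002) over vehicle. Without the high-oestrogen libraries these changes were 0.55 (adjusted p = 0.48) for doxorubicin + AMH and 0.91 (adjusted p = 0.33) for doxorubicin.

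At 4 h Fas had 4.96, 5.49, 4.27, 4.59 and 6.61 FPKM in doxorubicin + AMH uteri, 7.13, 8.25, 10.4, 3.16 and 6.47 FPKM in doxorubicin uteri, 4.02, 4.53, 4.36, 5.89 and 6.51 FPKM in AMH uteri and 2.51, 2.13, 3.14, 2.38 and 3.57 FPKM in vehicle uteri. The doxorubicin + AMH and AMH libraries lay wholly above vehicle, and so did the doxorubicin libraries except library 4. The rise over vehicle was 1.05 ± 0.23 with doxorubicin (adjusted p = 0.025) and 0.69 ± 0.23 with AMH (adjusted p = 0.034). With each library of the comparison left out in turn, the doxorubicin rise passed in 3 of 10 fits and the AMH rise in 5 of 10. The doxorubicin + AMH difference of 0.72 ± 0.23 did not pass (adjusted p = 0.13). The doxorubicin difference without AMH exceeded that with AMH by 1.02 ± 0.33 in size, an interaction of -1.02 that did not pass (adjusted p = 0.21).

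Tnfrsf10b encodes DR5, the mouse receptor for TRAIL. At 4 h its levels were 4.40, 3.61, 3.32, 3.95 and 3.62 FPKM in doxorubicin + AMH uteri, 4.90, 7.60, 6.40, 3.47 and 5.80 FPKM in doxorubicin uteri, 2.42, 2.70, 2.76, 3.33 and 3.19 FPKM in AMH uteri and 2.89, 3.86, 3.20, 3.73 and 2.83 FPKM in vehicle uteri. In doxorubicin uteri 4 of 5 libraries lay above every vehicle library, and the rise was 0.60 ± 0.13 (adjusted p = 0.026), or 0.56 (adjusted p = 0.12) without the high-adipocyte libraries. At 24 h the group means were 4.06 FPKM with doxorubicin + AMH, 4.86 FPKM with doxorubicin, 3.63 FPKM with AMH and 5.27 FPKM with vehicle. Doxorubicin stood 0.09 ± 0.13 below vehicle at 24 h (adjusted p = 0.66). The change in the doxorubicin effect between 24 h and 4 h, -0.68 ± 0.19, had the smallest unadjusted p of the 10 genes (0.00094 by limma) and did not pass (adjusted p = 0.49). The vehicle level itself rose by 0.53 ± 0.13 at 24 h relative to 4 h (adjusted p = 0.013).

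Bcl2 encodes the founding protective member of the family. At 4 h it had 7.71, 7.12, 7.02, 5.89 and 5.77 FPKM in doxorubicin + AMH uteri, 5.54, 4.97, 4.53, 5.82 and 6.16 FPKM in doxorubicin uteri, 10.1, 10.97, 8.69, 9.55 and 10.1 FPKM in AMH uteri and 4.95, 6.01, 6.33, 6.32 and 6.79 FPKM in vehicle uteri. Each AMH library exceeded every library of the other 3 groups at 4 h, and Bcl2 rose by 0.62 ± 0.18 over vehicle (adjusted p = 0.016). The oestrogen-responsive score also separated these groups at 4 h, at 2.80 to 3.62 in AMH uteri and 3.72 to 4.74 in vehicle uteri, beside both this rise and the fall of Bax, and its part in them was not tested. At 24 h the ranges were 5.09 to 9.06 FPKM with doxorubicin + AMH, 5.37 to 7.57 FPKM with doxorubicin, 3.18 to 10.8 FPKM with AMH and 3.77 to 8.55 FPKM with vehicle. No comparison passed for Bcl2 at 24 h, and the sign of the doxorubicin difference (0.21 ± 0.18, adjusted p = 0.4) was negative without the high-oestrogen libraries (-0.16, adjusted p = 0.9). Bcl2 is overlapped by an antisense gene and by 2 smaller genes of its own strand, of which the highest value in any library was 0.125 FPKM.

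**Figure D3:**
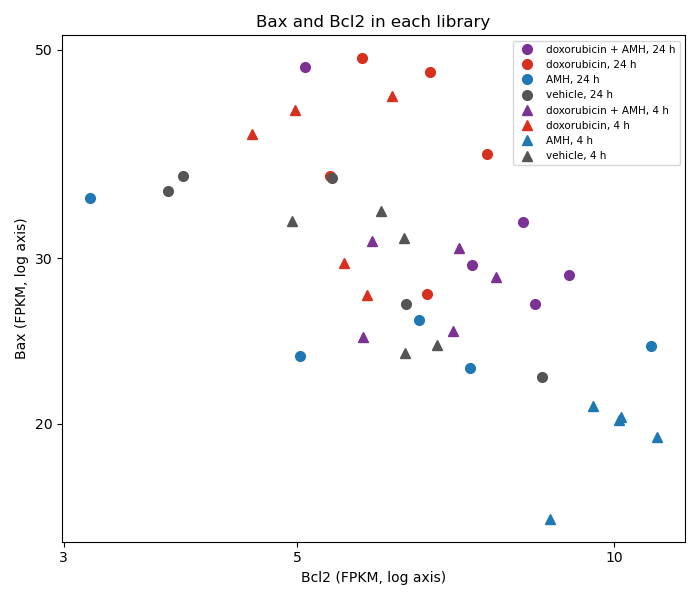
Bax against Bcl2 (FPKM, both log axes), 1 point per library, circles for 24 h and triangles for 4 h. The 5 AMH libraries at 4 h form the lower right corner, with Bax at 15.8 to 20.9 FPKM and Bcl2 at 8.69 to 10.97 FPKM.

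The ratio of Bax to Bcl2 had a median of 4.29 in doxorubicin + AMH uteri, 7.25 in doxorubicin uteri, 2.00 in AMH uteri and 4.99 in vehicle uteri at 4 h. All AMH ratios (1.77 to 2.19) lay below all vehicle ratios (3.57 to 6.64). At 24 h the medians were 4.00 in doxorubicin + AMH uteri, 6.83 in doxorubicin uteri, 3.96 in AMH uteri and 6.78 in vehicle uteri, and the ranges overlapped (2.24 to 10.9 in AMH and 2.62 to 9.43 in vehicle uteri).

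Bcl2l1, which encodes BCL-XL, varied the least after Mcl1, between 14.1 and 27.4 FPKM. At 24 h the means were 18.7 FPKM with doxorubicin + AMH, 24.1 FPKM with doxorubicin, 17.6 FPKM with AMH and 20.4 FPKM with vehicle. Doxorubicin + AMH stood 0.34 ± 0.10 below doxorubicin (adjusted p = 0.14), and doxorubicin 0.23 ± 0.10 above vehicle (adjusted p = 0.099). At 4 h the ranges were 17.8 to 25.2 FPKM with doxorubicin + AMH, 17.5 to 22.9 FPKM with doxorubicin, 16.9 to 19.7 FPKM with AMH and 15.0 to 16.7 FPKM with vehicle. All 3 treated groups thus lay wholly above vehicle, and none passed the test, with log2 differences of 0.35 for doxorubicin + AMH (adjusted p = 0.097), 0.25 for doxorubicin (adjusted p = 0.3) and 0.15 for AMH (adjusted p = 0.3).

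Mcl1, the short-lived guardian that NOXA binds, was the most abundant BCL2 family gene of the 10, at 60.6 to 114 FPKM. At 24 h it had 65.2, 63.2, 65.4, 63.4 and 61.0 FPKM in doxorubicin + AMH uteri, 97.5, 83.3, 82.1, 86.1 and 69.5 FPKM in doxorubicin uteri, 72.2, 79.8, 82.8, 72.1 and 68.5 FPKM in AMH uteri and 103, 114, 83.0, 90.3 and 85.0 FPKM in vehicle uteri. The doxorubicin + AMH libraries lay below every library of the other 3 groups at 24 h, and the AMH libraries lay below every vehicle library. Mcl1 fell by 0.38 ± 0.08 with doxorubicin + AMH relative to doxorubicin (adjusted p = 0.029) and by 0.56 ± 0.08 relative to vehicle (adjusted p = 2.8e-05), and the second change passed under every alternative tried. Without the high-oestrogen libraries the first was -0.29 (adjusted p = 0.12). AMH alone stood 0.33 ± 0.08 below vehicle and missed the threshold (adjusted p = 0.052). At 4 h the means were 65.2 FPKM with doxorubicin + AMH, 73.1 FPKM with doxorubicin, 73.0 FPKM with AMH and 66.9 FPKM with vehicle, and no comparison passed.

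Perp is a p53 target that is also a component of desmosomes in stratified epithelium. It spanned 22.6 to 267 FPKM, and no comparison passed, the doxorubicin differences being 0.04 ± 0.39 at 24 h (adjusted p = 0.95) and 0.15 ± 0.39 at 4 h (adjusted p = 0.91). The 3 highest values, 267 FPKM in doxorubicin library 2 at 4 h, 141 FPKM in vehicle library 3 at 4 h and 115 FPKM in doxorubicin library 1 at 24 h, were in the libraries with the 3 highest scores of the squamous epithelium list (Krt5, Krt14, Trp63, Dsg3 and Krt15), 7.08, 5.99 and 5.18, against a median of 0.797 over all libraries. High Perp was not confined to high squamous scores. The next highest value, 99.5 FPKM in vehicle library 2 at 24 h, came with a score of 1.47, and AMH library 3 at 24 h had 75.1 FPKM at 0.504. The genes most like Perp over the 40 libraries were Dsp (r = 0.939), Tmprss11b (r = 0.888) and Jup (r = 0.877).

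**Figure D4:**
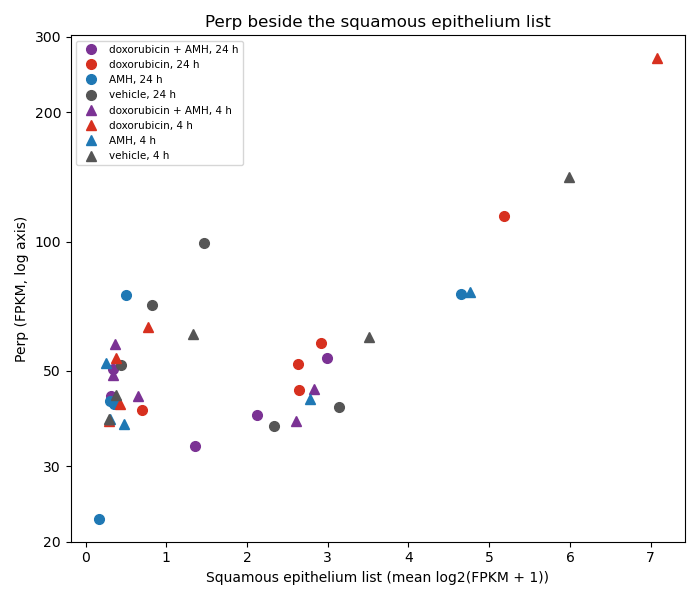
Perp (FPKM, log axis) against the mean log2(FPKM + 1) of the squamous epithelium list, 1 point per library, circles for 24 h and triangles for 4 h. The 3 libraries with the highest scores (5.18, 5.99 and 7.08) have Perp at 115, 141 and 267 FPKM.

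**Figure D5:**
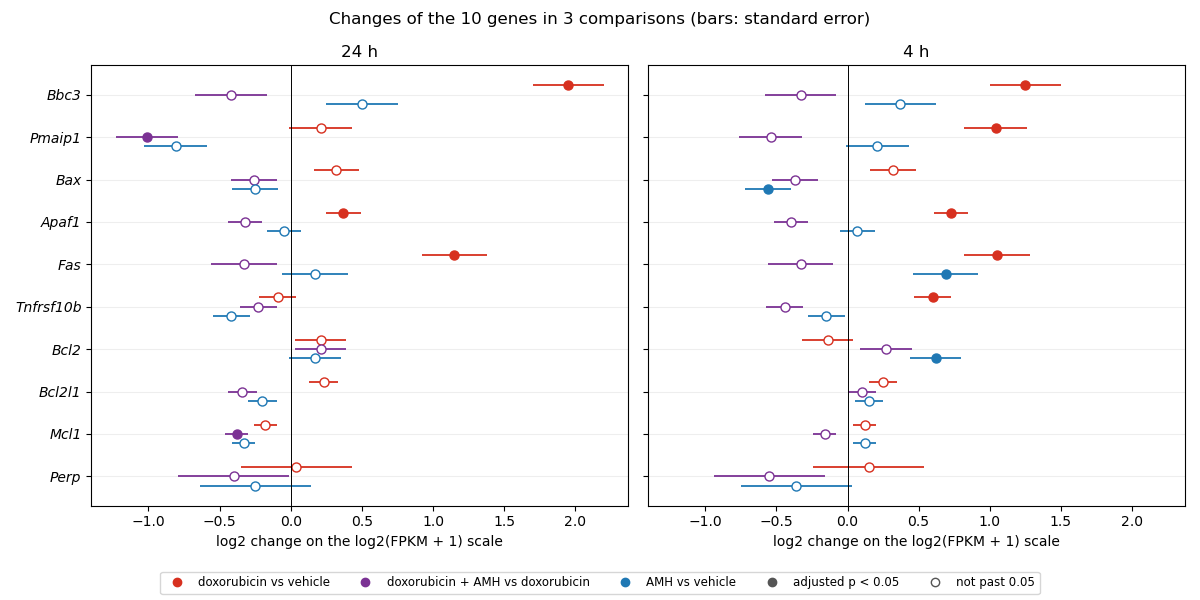
Log2 change of each gene, with its standard error, at 24 h and 4 h for doxorubicin over vehicle, doxorubicin + AMH over doxorubicin and AMH over vehicle; filled points passed an adjusted p of 0.05. At 4 h the 5 filled doxorubicin points are Bbc3, Pmaip1, Apaf1, Fas and Tnfrsf10b, and at 24 h the 2 filled doxorubicin + AMH points are Pmaip1 and Mcl1.

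Doxorubicin against vehicle asks what the drug does to these genes. At 24 h 3 of the 10 genes passed, Bbc3, Apaf1 and Fas, all higher, and 18.4% of all genes tested passed in that comparison, so the share of the 10 is not set apart from the table. With only the 2 compared groups in the fit, or without the high-oestrogen libraries, Bbc3 alone passed. The median log2 change was 0.22 over the 10 genes and -0.01 over all genes. At 4 h 5 of the 10 passed, Bbc3, Pmaip1, Apaf1, Fas and Tnfrsf10b, all higher, where 0.493% of all genes passed. None of the 3 protective genes passed at either time. The median was 0.46 over the 10 genes and 0.01 over all genes at 4 h. Leaving out doxorubicin library 2 or library 3 left Apaf1 as the one call, leaving out vehicle library 1, 2, 3 or 4 left 2 or 3 calls, and fitting only these groups left 0. Library 4 of the 4 h doxorubicin group, 1 of the libraries high in oviduct genes, was the lowest of its group for Bbc3, Pmaip1, Bax, Apaf1, Fas and Tnfrsf10b. Library 3 of that group, also high in oviduct genes, was the highest for Pmaip1 and Fas. Without the high-oviduct libraries 3 passed, Bbc3, Apaf1 and Tnfrsf10b, while Pmaip1 (1.05, adjusted p = 0.11) and Fas (1.21, adjusted p = 0.057) did not.

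The change in the doxorubicin effect between the times passed for none of the 10 genes by limma or by voom (0.0123% of all genes passed). An unadjusted limma p under 0.05 was found for 4 of the 10 and for 1580 of all 16226 genes. In vehicle uteri, 24 h against 4 h, 4 of the 10 passed, Pmaip1, Tnfrsf10b, Bcl2l1 and Mcl1, all higher, where 7.32% of all genes passed. Mcl1 averaged 95.1 FPKM at 24 h and 66.9 FPKM at 4 h (0.49 ± 0.08, adjusted p = 0.00027), and Pmaip1 3.00 FPKM at 24 h and 0.802 FPKM at 4 h (1.07 ± 0.22, adjusted p = 0.0034). Without the high-oestrogen libraries Pmaip1 changed by 0.52 (adjusted p = 0.25) and Tnfrsf10b by 0.26 (adjusted p = 0.42), and leaving out vehicle library 1 at 24 h left Pmaip1 and Mcl1. Without the high-adipocyte libraries Tnfrsf10b (0.50, adjusted p = 0.055) and Bcl2l1 (0.33, adjusted p = 0.086) did not pass, nor did Bcl2l1 without the high-oviduct libraries (0.33, adjusted p = 0.13). With only the 2 compared groups in the fit, 0 passed.

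Doxorubicin + AMH against doxorubicin asks what the hormone does beside the drug. At 24 h 2 of the 10 passed, Pmaip1 and Mcl1, both lower, where 0.333% of all genes passed. The median change was -0.34 over the 10 genes and -0.01 over all genes. Both calls were lost when any 1 library was left out other than doxorubicin + AMH library 4 and doxorubicin library 5, without the high-oestrogen or the high-adipocyte libraries, and in a fit of these 2 groups alone. Without the high-oviduct libraries, or with no filter, Mcl1 passed and Pmaip1 did not. At 4 h 0 of the 10 passed by limma or by voom, where 0.00616% of all genes passed. An unadjusted limma p under 0.05 was found for 1123 of all 16226 genes and for 4 of the 10. The lowest of these 4 p-values were 0.0021 for Tnfrsf10b (-0.44 ± 0.13, adjusted p = 0.59) and 0.0025 for Apaf1 (-0.40 ± 0.12, adjusted p = 0.59).

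AMH against vehicle asks what the hormone does without the drug. At 24 h 0 of the 10 passed by limma or by voom, where 0.462% of all genes passed. An unadjusted limma p under 0.05 was found for 3058 of all 16226 genes. Of the 10, Pmaip1, Tnfrsf10b and Mcl1 had one, all lower. These 3 passed when AMH library 3, vehicle library 3 or vehicle library 5 was left out. AMH library 3 had the highest oestrogen-responsive score of its group (5.17), and vehicle libraries 3 and 5 had the lowest of theirs. None of these 3 genes passed without the high-oestrogen libraries. At 4 h 3 of the 10 passed, Bax lower and Fas and Bcl2 higher, where 20.0% of all genes passed, so this share too is not set apart from the table. Leaving out vehicle library 2 left Bcl2 alone, and leaving out the high-adipocyte libraries, of which AMH library 3 and vehicle library 1 are in this comparison, left 0 (Bax -0.45, Fas 0.71 and Bcl2 0.60, with adjusted p of 0.13, 0.069 and 0.052).

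Doxorubicin + AMH against vehicle shares the vehicle libraries with the comparisons above. At 24 h 4 of the 10 passed, Bbc3 and Fas higher and Pmaip1 and Mcl1 lower, where 34.3% of all genes passed. Without the high-oestrogen libraries Mcl1 alone passed, and without the high-oviduct libraries Tnfrsf10b (-0.43, adjusted p = 0.0084) and Bcl2 (0.54, adjusted p = 0.036) passed as well. At 4 h 0 of the 10 passed by limma or by voom, where 0.394% of all genes passed. An unadjusted limma p under 0.05 was found for 5 of the 10 and for 2875 of all 16226 genes. Without the high-oestrogen libraries Bbc3 (0.92, adjusted p = 0.021) and Bcl2l1 (0.35, adjusted p = 0.028) passed at 4 h. Those libraries are all from 24 h, so no library of this comparison was left out. The log2 differences stayed the same, and the estimate of the spread shared by all groups changed. Against AMH alone, doxorubicin + AMH gave 0 calls of 10 by limma or by voom at 24 h, where 0.0986% of all genes passed. There 3 of the 10 and 2301 of all 16226 genes had an unadjusted limma p under 0.05. At 4 h the count was again 0 by both, where 0.222% of all genes passed. There 5 of the 10 and 1802 of all 16226 genes had an unadjusted limma p under 0.05. Bbc3 at 24 h (1.03 ± 0.25, adjusted p = 0.1) and Bax at 4 h (0.52 ± 0.16, adjusted p = 0.21) were higher in all 5 doxorubicin + AMH libraries than in any AMH library. Leaving out AMH library 1 at 24 h gave 2 calls, Bbc3 and Fas, and without the high-oviduct libraries Bbc3 passed at 24 h (1.02, adjusted p = 0.045).

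The interaction of doxorubicin and AMH asks whether the drug effect differs with the hormone. At 24 h 0 of the 10 genes passed by limma or by voom, where 0% of all genes passed, and Bbc3 alone had an unadjusted p under 0.05. Its interaction was -0.92 ± 0.35 (limma, adjusted p = 0.93). At 4 h 0 of the 10 passed by both, where 0% of all genes passed, and Pmaip1, Apaf1, Fas and Mcl1 had an unadjusted p under 0.05. Over all genes 675 at 24 h and 2356 at 4 h had an unadjusted p under 0.05.

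The other genes of the pathway came from lists of 55 genes, of which 49 passed the filter, and Fas ligand and TNF did not. Whether calls among the 49 hold under the alternatives, such as without the high-oestrogen libraries, was not checked. With doxorubicin at 24 h 7 rose and 2 fell, which is 18.4% of the 49, the same share as over all genes (18.4%). Among the 8 other BH3-only genes, 3 rose: Bcl2l11, which encodes BIM (0.61 ± 0.15, adjusted p = 0.0077), Bnip3 (0.85 ± 0.24, adjusted p = 0.015) and Bmf (0.82 ± 0.29, adjusted p = 0.047). For Bmf the groups overlapped, at 13.1 to 35.1 FPKM with doxorubicin and 7.83 to 26.2 FPKM with vehicle. The effector Bak1, the close relative of Bax, fell by 0.76 ± 0.20 (adjusted p = 0.014), at a mean of 16.1 FPKM in doxorubicin uteri and 30.2 FPKM in vehicle uteri. Its ranges overlapped, at 12.9 to 18.3 FPKM with doxorubicin and a wide 15.0 to 49.9 FPKM with vehicle. Of 16 apoptosome and caspase genes, Birc2, an inhibitor of apoptosis protein, rose (0.37 ± 0.12, adjusted p = 0.032). Of 7 death and decoy receptors, the decoy Tnfrsf11b rose (0.69 ± 0.20, adjusted p = 0.018), and of 6 adaptors and inhibitors Traf2 fell by 0.30 ± 0.09 (adjusted p = 0.018).

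At 4 h 3 of the 49 (6.12%, where 0.493% of all genes passed) rose with doxorubicin, all among the 7 p53-induced death genes outside the 10: Trp53inp1 (1.71 ± 0.22, adjusted p = 2.4e-05), Phlda3 (1.14 ± 0.23, adjusted p = 0.0098) and Ei24 (0.58 ± 0.13, adjusted p = 0.024). Trp53inp1 and Phlda3 were also higher at 24 h, by 1.34 ± 0.22 and 1.37 ± 0.23 (adjusted p = 0.00024 and 0.0002). Cdkn1a, the p53-induced cell cycle inhibitor, averaged 57.9 FPKM in doxorubicin uteri and 3.92 FPKM in vehicle uteri at 4 h (3.39 ± 0.36, adjusted p = 6.6e-07). Mdm2, which encodes the ligase that degrades p53, rose by 0.93 ± 0.15 at 4 h (adjusted p = 0.00049), while Trp53 itself fell by 0.45 ± 0.12 at 24 h (adjusted p = 0.01). Lower Trp53 was not particular to doxorubicin. At 4 h it ranged over 28.2 to 33.7 FPKM with AMH alone and 39.6 to 44.2 FPKM with vehicle. Of Trp53, Mdm2 and Cdkn1a, 1 passed in that comparison, lower, where 20.0% of all genes passed.

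With AMH at 4 h 8 of the 49 rose and 8 fell, 32.7% beside 20.0% of all genes. The BH3-only genes Bcl2l11 (0.61 ± 0.15, adjusted p = 0.0073), Bnip3 (0.86 ± 0.24, adjusted p = 0.012), Bnip3l (0.59 ± 0.17, adjusted p = 0.016) and Bmf (0.87 ± 0.29, adjusted p = 0.034) rose, and 1 of the 8 fell. Of the 16 apoptosome and caspase genes 2 rose and 3 fell, among them Htra2 (-0.58 ± 0.13, adjusted p = 0.0054), Casp6 (0.54 ± 0.13, adjusted p = 0.0079) and Cycs, which encodes cytochrome c (-1.46 ± 0.36, adjusted p = 0.0081). Of the 7 p53-induced genes Trp53inp1 rose by 0.94 ± 0.22 (adjusted p = 0.0069), while Zmat3 fell by 0.70 ± 0.17 (adjusted p = 0.0081) and Pidd1 by 0.96 ± 0.27 (adjusted p = 0.014). Doxorubicin + AMH against vehicle at 24 h gave 7 higher and 9 lower of the 49, 32.7% beside 34.3% of all genes, and vehicle at 24 h against 4 h gave 4 higher and 1 lower, 10.2% beside 7.32% of all genes. Between doxorubicin + AMH and doxorubicin at 24 h the death receptor Tnfrsf21 alone of the 49 passed (2.04%, beside 0.333% of all genes), at a mean of 7.43 FPKM in doxorubicin + AMH uteri and 12.0 FPKM in doxorubicin uteri (-0.61 ± 0.14, adjusted p = 0.049).

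Over the 40 libraries, which share groups and depth, Bbc3 and Fas tracked each other most closely among the 10 genes (r = 0.87), followed by Bax and Tnfrsf10b (r = 0.81) and Pmaip1 and Tnfrsf10b (r = 0.79). Bax and Bcl2 had the most negative value (r = -0.61). The protein-coding genes most like Bbc3 in the whole table were Ephx1 (r = 0.911), Dcaf4 (r = 0.895) and Cpt1c (r = 0.891), and Cpt1c and Ephx1 also led for Fas (r = 0.888 and 0.871). Bax was most like Aen (r = 0.905), Zmat3 (r = 0.858) and Rps27l (r = 0.851), and Bcl2 was most like Meis2 (r = 0.941), Wfikkn2 (r = 0.933) and Sema6c (r = 0.912). Pmaip1 was most like Osmr (r = 0.846) and Mcl1 most like Chfr (r = 0.858).

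In order of group medians, Bbc3 ran from doxorubicin at 24 h (18.8 FPKM) through doxorubicin at 4 h (15.1 FPKM), doxorubicin + AMH at 24 h (12.9 FPKM) and 4 h (12.0 FPKM) and AMH at 4 h (7.59 FPKM) to vehicle at 4 h (5.93 FPKM), AMH at 24 h (5.72 FPKM) and vehicle at 24 h (3.78 FPKM). Each group overlapped the next in that order. Of all 10 genes, neighbours in the order failed to overlap in 2 places, between AMH at 24 h and AMH at 4 h for Bax (24.2 and 20.2 FPKM) and between AMH and vehicle at 4 h for Bcl2l1 (17.4 and 15.9 FPKM). How often groups fail to overlap over all genes was not counted, so these gaps are not set apart from the table.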

How the data were processed

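Novogene prepared the libraries from uterus RNA isolated by a Qiagen kit, per the labels' protocols. The authors deposited FPKM values for 54532 genes, with annotation columns, in 1 table. The submitters' processing notes name build mm10, but no aligner, counter or strand setting is given there. FPKM times gene length gave whole reads in 100% of values (tolerance 0.01 reads), and these rebuilt reads were used in the voom alternative. Over genes above 0 in all libraries, the deposited columns already shared 1 median-of-ratios scale.

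The 16226 genes that reached 1 FPKM in 5 or more libraries were tested as log2(FPKM + 1) by limma 3.58.1 in R 4.3.3 with an intensity trend, all 8 groups in 1 fit (32 residual degrees of freedom), two-sided, with Benjamini-Hochberg adjustment within each of 14 comparisons and a threshold of 0.05. A fold change on this scale understates the change of low genes. The fit was tested on simulated data. Groups follow the labels. The 10 genes, the pathway and marker lists and the naming rule (all 10 genes, up to 4 called genes per list and comparison, 3 most similar genes) were chosen with earlier results of these data known. The 3 promoter motifs were chosen without a rule fixed beforehand, and all 3 searched are reported. Alternatives were another pseudocount, 2 filters, another scaling, the replicate block, array weights, voom, only the compared groups, and each library left out. The other scaling was by median of ratios, a scale the columns already shared, so it could not change a result. Leaving out libraries high in oviduct, oestrogen-responsive or adipocyte genes, and scaling to reads in genes, were added after seeing the data. Tables were read with pandas 2.3.3 in Python 3.11.15 and plots drawn with matplotlib 3.10.9.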

Additional observations from a re-analysis of the deposited data

Results flagged for a closer look

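Of 80 combinations of gene and group of 5 libraries, 6 held a library far from the other 4, where chance flags about 1 in 20. Perp accounted for 3: doxorubicin library 2 at 4 h (267 FPKM, next 63.4 FPKM), vehicle library 3 at 4 h (141 FPKM, next 61.0 FPKM) and doxorubicin library 1 at 24 h (115 FPKM, next 58.0 FPKM). These are the 3 libraries with the highest squamous epithelium scores. Bax was high in doxorubicin + AMH library 4 at 24 h (47.9 FPKM, next 32.8 FPKM), 1 of the 9 libraries high in oviduct genes, and in AMH library 3 at 24 h (34.8 FPKM, next 25.8 FPKM), 1 of the 6 high in oestrogen-responsive genes. Bcl2l1 was high in AMH library 4 at 4 h (19.7 FPKM, next 17.5 FPKM).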

How the results depend on the processing

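The count of genes that passed, of 10, moved by more than 1.5 times as follows, with calls lost to fewer libraries or genes tested not separated from other causes, which were not tested. For doxorubicin against vehicle at 24 h (3), voom and scaling to reads in genes each gave 5, and the fit of only the groups compared and the data without high-oestrogen libraries each gave 1; leaving out single libraries gave 2 to 4. For doxorubicin + AMH against doxorubicin at 24 h (2), no filter, a filter at 5 FPKM and the data without high-oviduct libraries each gave 1, array weights gave 6, and the groups compared alone and the data without high-oestrogen or high-adipocyte libraries gave 0; single libraries gave 0 to 2. For AMH against vehicle at 24 h (0), a pseudocount of 0.1 gave 1, array weights 3 and single libraries 0 to 3. For doxorubicin + AMH against vehicle at 24 h (4), the data without high-oestrogen libraries gave 1 and single libraries 3 to 6. Against AMH at 24 h (0), array weights gave 3, the data without high-oviduct libraries 1 and single libraries 0 to 2. For doxorubicin against vehicle at 4 h (5), no filter gave 2, the groups compared alone 0, the data without high-oviduct libraries 3 and single libraries 1 to 5. For AMH against vehicle at 4 h (3), the data without high-adipocyte libraries gave 0 and single libraries 1 to 3. For doxorubicin + AMH at 4 h, array weights and the groups compared alone each gave 3 against vehicle and 2 against AMH (0 each), and the data without high-oestrogen libraries gave 2 against vehicle. The high-oestrogen libraries are all from 24 h, so none of the 4 h libraries was left out there. The 4 h interaction (0) gave 3 with array weights and 1 with the groups compared alone, and the change of the doxorubicin effect with time (0) gave 1 with array weights. For vehicle at 24 h against 4 h (4), the groups compared alone gave 0, the data without high-oestrogen or high-adipocyte libraries 2 each and single libraries 2 to 4. Bcl2 changed sign for doxorubicin at 24 h without high-oestrogen libraries (-0.16). The 24 h interaction and doxorubicin + AMH against doxorubicin at 4 h gave 0 under every alternative.

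Scaling to reads in genes moved the split of all calls to 2279 higher and 646 lower for doxorubicin against vehicle at 24 h (1369 and 1615 as deposited), 3847 and 1672 for doxorubicin + AMH against vehicle at 24 h (2555 and 3011; the median of all genes moved to 0.11), 50 and 22 for AMH against vehicle at 24 h (31 and 44) and 347 and 697 for vehicle at 24 h against 4 h (695 and 493).

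Same-numbered libraries did not deviate together (of 40 pairs 12 had r over 0.1, median 0.02, and 8 were best with their own number), so numbers name libraries only. With the replicate block, AMH against vehicle at 24 h gave 1 call, Mcl1 (adjusted p = 0.04), against 0 without it. The lowest gene, Pmaip1, rested on 28 to 303 rebuilt reads per library.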

Other observations

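Within the vehicle group at 24 h, libraries 1, 2 and 4, which have the highest oestrogen-responsive scores of all 40 libraries, also stood on 1 side of libraries 3 and 5 for several of the genes. Bax was 36.5, 35.4 and 36.7 FPKM in libraries 1, 2 and 4 and 22.4 and 26.8 FPKM in libraries 3 and 5. Tnfrsf10b was 6.12, 5.79 and 6.16 FPKM against 4.15 and 4.12 FPKM. Bcl2 was 5.39, 3.77 and 3.89 FPKM against 8.55 and 6.34 FPKM, and Bbc3 3.78, 2.02 and 2.66 FPKM against 6.60 and 4.54 FPKM. AMH library 3 at 24 h, with a score of 5.17, had the highest Bax of its group (34.8 FPKM) and the lowest Bcl2 (3.18 FPKM), Bbc3 (2.89 FPKM) and Fas (1.61 FPKM). These values were noticed in the data and no test was made of them.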
